A study of Malus domestica with 12 samples.

Results

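The comparison described here set the peel of 'Granny Smith' apples harvested in 2017 on plot 31b (2017-R11), labelled high scald, against the peel of 'Granny Smith' apples harvested in 2014 on plot 24 (2014-P24), labelled low scald. It was made of the 4 of the 12 one-channel samples of the series that carry these labels, namely 2014-P24 c and d and 2017-R11 a and b. They were chosen by their titles, with no use of a measured value. All the fruit was wild-type, picked at early physiological maturity and sampled at harvest before any cold storage, and each sample pooled 20 fruit. The remaining 8 samples belonged to 2 comparisons of 2015 peel with 2014 peel, 2015-P24 over 2014-P24 and 2015-P31 over 2014-P36, the former with the same 2014-P24 peel as reference.

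Each sample was 1 dye channel of a 2-colour microarray that carries a sense and an antisense probe for most apple transcripts. The first array held 2014-P24 c with 2017-R11 a and the second, with the dyes exchanged, held 2014-P24 d with 2017-R11 b. A ratio was the log2 of 2017-R11 over 2014-P24 within an array, and a level was the normalised log2 intensity of a single channel. Because both arrays carried the same pair of peel samples, they counted as 1 replicate, and the spread between them covers labelling and hybridisation only. No test over samples could be made of this comparison alone. Harvest year, orchard and scald class changed together and cannot be told apart, and in ground peel fewer cells of a type and less RNA per cell cannot be told apart either. The markers of peel cells were not named in the tables at hand, so that the labelled tissue was not checked against them.

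Superficial scald is a browning of apple skin that appears after cold storage, and the comparison asked which transcripts already differed at harvest. In plants light is read by photoreceptors that hold back the COP1-SPA ubiquitin ligase, and this lets the bZIP transcription factor HY5 accumulate. HY5, with its homologue HYH, switches on genes of light acclimation, among them MYB12, the regulator of flavonol synthesis, phenylalanine ammonia lyase (PAL), which opens the phenylpropanoid pathway, and the early light-induced proteins (ELIP), which bind chlorophyll in stressed chloroplasts. Apple skin is known to respond to sunlight through the same regulators, and heat shock proteins, the chaperones that keep other proteins folded, rise in fruit skin that the sun has warmed.

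Among 133709 probes, 29051 were measured on both arrays and well above background in both channels of at least 1 of the 2 peel samples. Of these, 514 (1.77%) were at least 2-fold lower in 2017-R11 with the same sign on both arrays, and 480 (1.65%) were at least 2-fold higher. The lower side reached further. It held 116 probes past 4-fold and 36 past 8-fold, whereas the higher side held 12 past 4-fold and 0 past 8-fold. The median ratio of all probes examined was −0.01, and 90% of them lay between −0.63 and 0.68. The ratios of the 2 arrays correlated across the probes examined with r = 0.821, where probes are not independent replicates, and the median gap between the arrays among the probes past 2-fold was 0.17. The balance between the directions depended on the scaling. With loess it was 514 lower and 480 higher, and with each array only centred on its median it was 856 lower and 186 higher. In the latter setting the median of the probes examined stood at −0.18.

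**Figure D1:**
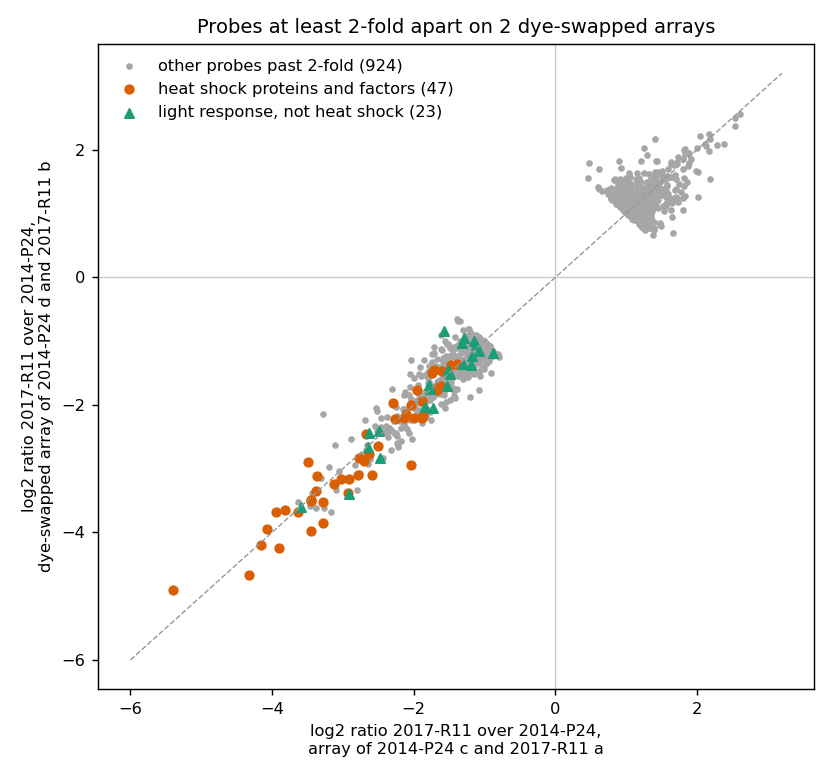
Log2 ratio of 2017-R11 over 2014-P24 on the array of 2014-P24 c and 2017-R11 a (horizontal) against the dye-swapped array (vertical), 1 point for each of the 994 probes past 2-fold, with the identity line dashed. The 47 heat shock probes and the 23 light-response probes outside the heat shock families all lie on the lower side, and the heat shock probes reach furthest.

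The light response was described first, by the 71 probes (55 genes) that the study's tables of lower transcripts mark with a light annotation, together with HYH. The study chose these tables on the arrays of the series, so that their direction is no independent evidence and the counts are a description. Of the 68 light-response probes examined, 48 (70.6%) were at least 2-fold lower in 2017-R11 and 0 were higher. Their median ratio was −1.56, with −1.58 on the first array and −1.60 on the second. Within the list, 26 probes belong to heat shock or chaperone families, and 25 of these were past 2-fold with a median of −2.70. The other 45 probes (36 genes) had a median of −1.06, and 23 of the 42 examined (54.8%) were at least 2-fold lower. Of the 44 measured on both arrays, 43 were negative on both, and the remaining one, a probe for a MA3 domain protein (MD06G1160300), read 0.01 and −0.47.

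PAL1 (MD12G1116700), the entry enzyme of phenylpropanoid synthesis, showed the lowest ratio of this list among the genes outside the heat shock families that were measured on both arrays. Its level was 11.40 and 11.32 in 2014-P24 c and d and 7.82 and 7.71 in 2017-R11 a and b. The ratios were −3.59 and −3.60, a 12.1-fold lower intensity. A second PAL1 probe was dim in all 4 channels, at 6.43 and 6.94 in 2014-P24 and 6.01 and 6.17 in 2017-R11, and not well above background in 2017-R11, so that it gave no more than a bound of 1.4-fold lower.

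HY5 (MD08G1147100), the bZIP factor at the centre of light signalling, stood at 10.24 and 10.36 in 2014-P24 and at 7.32 and 6.96 in 2017-R11. Its ratios were −2.92 and −3.40, with a mean of −3.16, or 8.94-fold lower. For HYH (MD16G1132200), the homologue of HY5, the channels read 8.65 and 8.78 in 2014-P24 and 8.15 and 7.87 in 2017-R11. Both HYH ratios were negative, −0.50 and −0.91, but their mean of −0.71 did not reach 2-fold.

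Both copies of MYB12, the flavonol regulator, were lower by a similar ratio. MYB12 MD03G1297100 read 10.20 and 9.96 in 2014-P24 and 7.56 and 7.52 in 2017-R11, a ratio of −2.54. MYB12 MD11G1316800 read 9.56 and 9.57 in 2014-P24 and 7.06 and 7.15 in 2017-R11, a ratio of −2.46. A second and dimmer probe of MD03G1297100 was not well above background in 2017-R11 and was at least 2.43-fold lower. For such probes the fold is a lower bound, the mean level in the bright sample against, on each array, the higher of the probe's own level and the dimmest level that counted as well above background. Here the probe's own level was the higher, so that the bound equals its measured ratio of −1.28. By contrast, the homologue of AT5G07990 (MD14G1224300), the flavonoid 3′-hydroxylase that acts further along the pathway, read 11.01 and 11.02 in 2014-P24 and 10.68 and 10.64 in 2017-R11, a ratio of −0.36.

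The light-response members that act in the chloroplast ranged from ELIP1 down to genes that stayed under 2-fold. ELIP1 (MD14G1150400) was represented by 2 probes. The brighter probe gave 12.59 in 2014-P24 c and 7.47 in 2017-R11 a, a ratio of −5.11 on a single array, because its spot on the second array was marked as an outlier and left out. The other ELIP1 probe gave 8.65 and 9.06 in 2014-P24 and 6.17 and 6.23 in 2017-R11, where it was not well above background, and was at least 5.97-fold lower. SIGE (MD07G1285600), a sigma factor of the plastid RNA polymerase, had a ratio of −1.89, from 10.53 and 10.70 down to 8.80 and 8.65. EGY3 (MD10G1110200), a chloroplast membrane protein, had a ratio of −1.94. In LHCB3 (MD11G1236900), a protein of the light-harvesting antenna, the ratio was −1.04. The 2 PGR5 genes, which serve cyclic electron flow around photosystem I, had ratios of −0.32 and −0.21 and did not reach 2-fold.

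Among the metabolic and signalling members, GPT2 (MD10G1316100), which carries glucose 6-phosphate across the plastid envelope, read 12.94 and 13.02 in 2014-P24 and 10.29 and 10.36 in 2017-R11. Its ratio was −2.65 on both arrays. GOLS1 (MD17G1280400), a galactinol synthase that supplies the raffinose family of sugars, had ratios of −1.74 and −1.76 with its 2 probes. The clock protein gene GI (MD10G1034200) read 10.60 and 10.68 in 2014-P24 and 9.43 and 9.45 in 2017-R11, a ratio of −1.20. ATHBP2, a haem-binding protein of the SOUL family, was 2.83-fold lower, and DDB2 (MD11G1075200), a sensor of UV-damaged DNA, read −1.58 and −0.84 on the 2 arrays. The glutamate receptor GLR2.7 (MD05G1305700) was at least 2.77-fold lower.

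Members past 2-fold with a less settled role included an MA3 domain gene (MD05G1036500) at −1.17 and zinc finger genes of the CCCH type, MD11G1156400 at −1.11 and MD03G1134200, at least 2.17-fold lower. The remaining 19 of the 42 light-response probes examined outside the heat shock families stayed under 2-fold. ASN1, the dark-inducible asparagine synthetase, gave ratios of −0.35 and −0.54 for MD03G1066000 and −0.51 for MD11G1070800, where a second probe read −1.17 and −0.82 on the 2 arrays and did not quite reach 2-fold. SPA3 (MD03G1228100), a partner of COP1, had a ratio of −0.44. ZAT12 (MD03G1099300), a zinc finger protein of stress responses, read 8.56 and 8.59 in 2014-P24 and 7.75 and 7.96 in 2017-R11, a ratio of −0.72. SAG21 (MD03G1289900), a late embryogenesis abundant protein, read 12.56 and 12.46 in 2014-P24 and 12.12 and 12.21 in 2017-R11, a ratio of −0.34. ASN1, SPA3, ZAT12 and SAG21 had negative ratios on both arrays and stayed under 2-fold on their mean. Negative ratios on both arrays held for 43 of the 44 light-response probes measured outside the heat shock families. They held for 806 of 811 of the study's lower transcripts, which were chosen on these arrays.

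**Figure D2:**
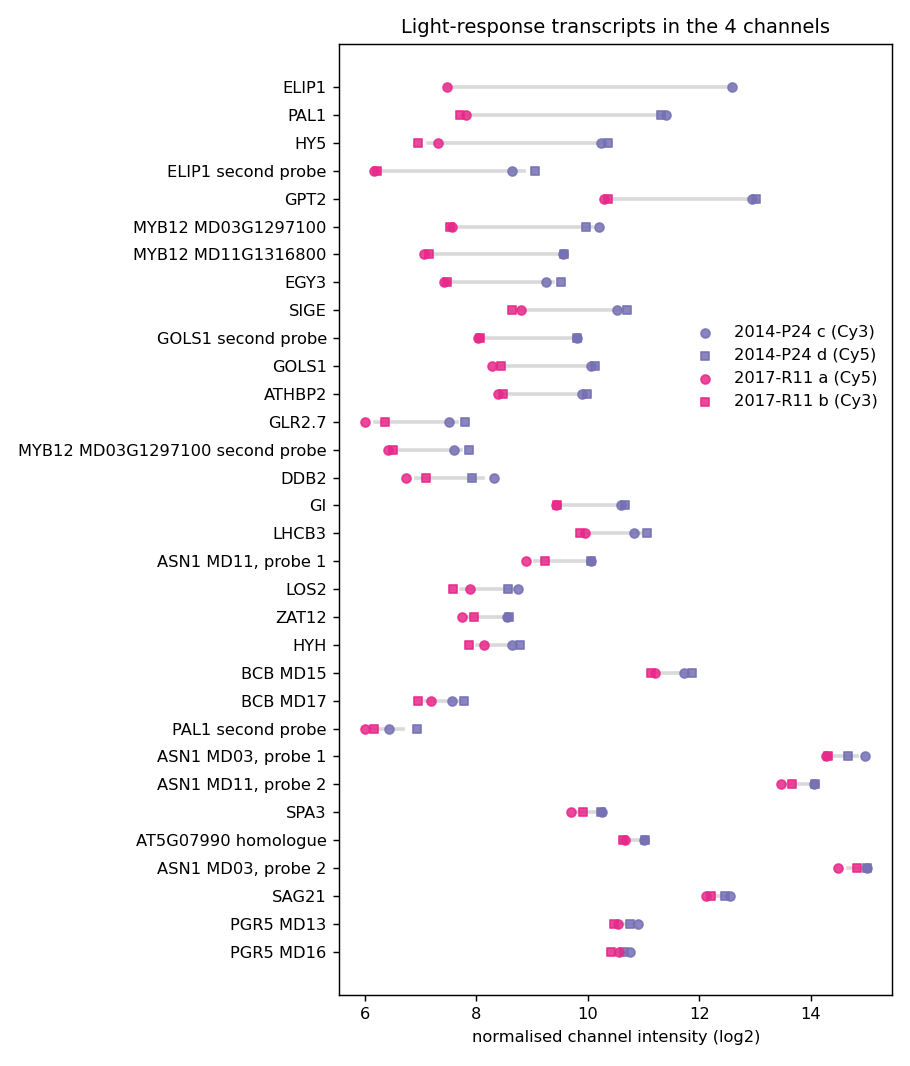
Normalised log2 intensity of the 32 light-response probes outside the heat shock families that have a short gene name, 1 row per probe ordered by ratio. Violet marks are 2014-P24 c and d and pink marks are 2017-R11 a and b, with circles for the first array and squares for the dye-swapped array. The gap narrows from 5.11 for ELIP1 to 0.21 for a PGR5 gene, and the ELIP1 row holds a single array.

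Heat shock proteins and factors made up the far end of the lower transcripts. All 47 members examined of the study's heat shock table (48 members, 1 measured on a single array) were at least 2-fold lower, with a median of −2.80, and 29 of the 50 lowest ratios of the comparison belonged to heat shock genes. The study also chose this table on these arrays. The 20 small heat shock proteins and co-chaperones, which hold unfolding proteins in solution, had a median of −3.17 and a range from −5.15 to −1.42. The lowest ratio of all the probes examined belonged to a small heat shock protein (MD05G1240300), which read 11.38 and 11.22 in 2014-P24 and was not well above background in 2017-R11 at 5.99 and 6.32. It was at least 34.6-fold lower. HSP21 (MD13G1108500), the chloroplast small heat shock protein, read 12.64 and 12.63 in 2014-P24 and 8.32 and 7.97 in 2017-R11, a 22.5-fold difference.

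The larger chaperones were lower by similar amounts. The 4 HSP100 genes, whose products pull proteins out of aggregates, had a median ratio of −3.13. HSP101 MD06G1201600 read 13.59 and 13.62 in 2014-P24 and 9.69 and 9.38 in 2017-R11, a ratio of −4.07. Of the 4 HSP90 genes, whose products mature regulators such as receptors and kinases, HSP90.1 MD01G1208700 was lowest at 16.1-fold lower, from 10.73 and 10.59 to 6.66 and 6.65. HSP81.4 (MD11G1037400), annotated as an HSP90 as well, had the ratio nearest to 0 of the family, −1.58. In the 9 HSP60 and HSP70 genes, whose products assist protein folding, the median was −2.57, and −2.42 with dim members at their bound. HSP70 MD07G1197200 read 11.23 in both channels of 2014-P24 and 7.59 and 7.54 in 2017-R11, a ratio of −3.66.

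All 5 heat shock factors, transcription factors of the heat shock response, were at least 2-fold lower, with a median of −2.01. In 4 of the 5 neither 2017-R11 channel was well above background, and the median was −1.99 with these at their bound. HsfA2 MD15G1057700 read 9.63 and 9.43 in 2014-P24 and was not well above background in 2017-R11 at 6.27 and 6.32, at least 9.21-fold lower. The second HsfA2 gene (MD08G1064100) was at least 3.98-fold lower and HsfA6B (MD03G1258300) had a ratio of −2.01. Of the 5 HSP90 co-chaperones and related proteins examined, the Aha1 genes had ratios of −2.04 and −1.91. The 7 heat-response genes outside the chaperone families were also all past 2-fold, with a median of −2.22. They include the immunophilin gene MD04G1022400 at −2.87 and the 2 copies of the coactivator MBF1C at −2.28 and −2.22. Several of these families hold related copies whose sequences were not compared, and hybridisation of 1 copy's RNA to another copy's probe was not tested.

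**Figure D3:**
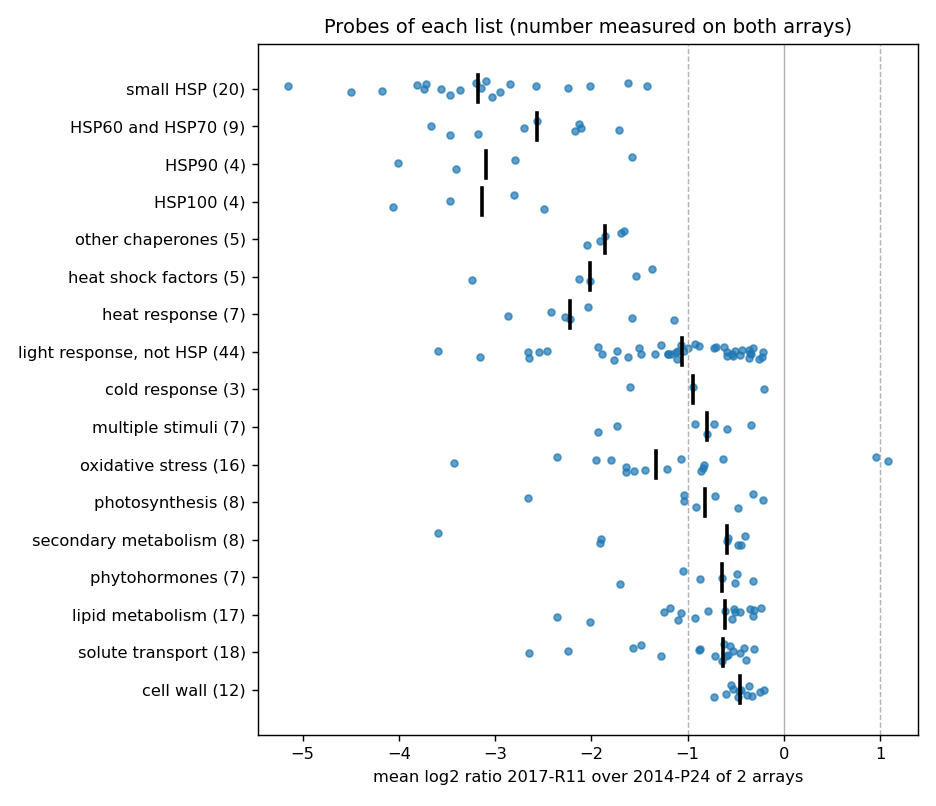
Mean log2 ratio of 2017-R11 over 2014-P24 of the probes of each list, with the number measured on both arrays in brackets, black bars for medians and dashed lines at 2-fold. Medians run from −3.17 for the small heat shock proteins to −0.46 for cell wall genes, and 2 oxidative stress members lie above 0.

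The lists of cold response and of multiple stimuli had medians of −0.94 and −0.80. Of 3 cold-response genes, FER1 (MD04G1164500), an iron-storing ferritin, was past 2-fold with a ratio of −1.59. The AAA-ATPase gene AATP1 (MD09G1043700) read 10.95 and 10.94 in 2014-P24 and 10.62 and 10.84 in 2017-R11, a ratio of −0.21. Of 8 genes of multiple stimuli, 7 were examined, and EGY3 and GOLS1 among these were past 2-fold (28.6%). The gene left out of this count and median was ELIP1, whose brighter probe, the one listed, was measured on 1 array at −5.11. The dehydrin COR47 (MD15G1253900) had a ratio of −0.80 and LOS2 (MD01G1185500), an enolase, −0.92.

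In the oxidative stress list, 10 of 16 genes examined (62.5%) were at least 2-fold lower and 1 was higher, with a median of −1.33. The lowest was GSTU19 MD05G1211000, a glutathione S-transferase that conjugates electrophiles, at 10.89 and 11.21 in 2014-P24 and 7.71 and 7.54 in 2017-R11, a ratio of −3.42. The other GSTU19 genes measured on both arrays had ratios of −1.95 and −1.64, whereas 2 GSTU8 genes stood at −0.84 and −0.86 and did not reach 2-fold. Both genes of cytochrome c, the mobile electron carrier of mitochondria, were lower with ratios of −1.80 and −1.56, as was a glutaredoxin (MD06G1110300) at −1.64. A Barwin-related gene (MD02G1013800) went the other way, from 6.54 and 6.51 in 2014-P24 to 7.70 and 7.52 in 2017-R11, a ratio of 1.09. GASA14 (MD17G1039200), a gibberellin-regulated gene, had a ratio of 0.96 and stayed under 2-fold.

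Metabolic lists from the same tables had medians between −0.81 for photosynthesis and −0.46 for cell wall genes. In secondary metabolism 3 of 6 genes examined were past 2-fold, PAL1 and 2 terpenoid cyclases (MD09G1168300 and MD09G1168200) with ratios of −1.92 and −1.90, while phytoene synthase (MD17G1133400) stood at −0.48. In lipid metabolism 6 of 15 were past 2-fold. Fatty acid desaturase A (MD03G1205300) read 8.78 and 9.04 in 2014-P24 and 6.43 and 6.68 in 2017-R11, and a rubber elongation factor gene (MD04G1201000) had a ratio of −2.01. Among phytohormone genes, 2 annotated as ethylene-forming enzyme (ACC oxidase, the last step of ethylene synthesis) met the 2-fold rule, MD09G1114800 with a ratio of −1.70 and MD17G1106300 with −1.04. The latter was not well above background in 2017-R11, and its bound was 1.94-fold, short of 2-fold. Of 17 solute transport genes examined, 5 were past 2-fold, GPT2 first and then the ammonium transporter AMT2 (MD12G1174700) at −2.24. None of the 11 cell wall genes examined was past 2-fold. Over all 753 examined of the 820 lower transcripts in the study's table at hand, 239 (31.7%) were at least 2-fold lower here, 0 were higher, and the median was −0.64.

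In the table that sets the study's arrays beside RT-qPCR, 9 genes are listed, and on these arrays 6 were at least 2-fold lower and 1 was higher. IMS1 (MD05G1155100), named as an isopropylmalate synthase, read 6.87 in both channels of 2014-P24 and 8.75 and 8.82 in 2017-R11, a ratio of 1.92. The PPO target (MD10G1299400), which a second table annotates as a GDSL lipase, had a ratio of −1.31. LOX (MD09G1069500), a lipoxygenase, stood at 0.26 and EXGT (MD16G1145200), a xyloglucan-modifying enzyme, at 0.29, and at −0.07 without loess.

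Most probes past 2-fold lay outside the part of the study's tables at hand, which lists lower transcripts with few exceptions, namely 272 of the 514 lower and 478 of the 480 higher. They carry no gene name in the sources used here. The higher probes held more antisense probes, 102 of 480 (21.2%), than the lower ones, 39 of 514 (7.59%), beside 16.7% of all probes examined. Of the 102 higher antisense probes, 42 had a sense partner that could be examined, and 12 of these partners were higher too and 0 were lower. Of the 39 lower ones, 13 had such a partner, with 9 lower and 0 higher.

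The highest ratio of the comparison belonged to MDP0000268854, at 9.04 and 9.01 in 2014-P24 and 11.64 and 11.57 in 2017-R11. Its ratio was 2.58, a 5.99-fold higher intensity. The unnamed transcript with the lowest ratio was MDP0000759336, at 13.40 and 13.48 in 2014-P24 and 9.76 and 9.96 in 2017-R11, a ratio of −3.58. Both probes were picked by the size of their ratio, so that the gap between the channels of the 2 peel samples follows from that choice.

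The comparison was then set beside the 2 comparisons of 2015 peel with 2014 peel. The ratio for 2015-P24 shares its 2014-P24 reference with the ratio for 2017-R11, so that the values are given side by side with no measure of likeness. By the same rule, 2015-P24 had 403 probes lower (1.26%) and 232 higher (0.726%), and 2015-P31 had 761 lower (4.21%) and 75 higher (0.415%). In the heat shock table the medians over the same 47 genes were −2.80 for 2017-R11, −2.66 for 2015-P24 and −1.22 for 2015-P31. For the 44 light-response probes outside the heat shock families that were measured on both arrays, they were −1.06, −0.95 and −0.51. For the 9 light genes of the study's stress table, which are part of these, they were −2.46, −1.44 and −0.53. On the arrays of 2015-P31 and 2014-P36 the Cy5 channels had 10.9% and 13.2% of probes well above background, beside 21.6 to 30.2% in the other channels of the series, and the part of this in the 2015-P31 values was not tested.

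Whether the ratio for 2017-R11 differed from the mean of the 2015 ratios was tested by limma over 3 ratios, the ratio for 2017-R11 being assumed to vary like the 2015 ones. The fit took the 3 ratios as independent, although those for 2017-R11 and 2015-P24 share the 2014-P24 peel, so that its errors and p values are approximate. Of 133698 probes, 0 passed at an adjusted p of 0.05, and 9153 (6.85%) had an unadjusted p under 0.05. The lowest adjusted p was 0.529. When the 6 arrays were entered singly, which counts dye-swapped arrays as independent, 400 probes passed. The differences below are therefore sizes with an error, and none passed the test. With 3 ratios the fit had few degrees of freedom, 1.84 of them from limma's prior. A probe that did not pass is therefore not shown to have like ratios in 2017-R11 and 2015 peel.

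PAL1 had ratios of −3.60 for 2017-R11, −1.44 for 2015-P24 and −0.72 for 2015-P31. Its difference from the 2015 mean was −2.51 ± 0.37 (SE, n = 3 ratios), with limma's adjusted p = 0.532. GPT2 had ratios of −2.65, −0.98 and −0.53, a difference of −1.90 ± 0.24 with limma's adjusted p = 0.531. In both genes the ratio for 2017-R11 lay below both 2015 ratios. This order held for 27 of 45 light-response probes outside the heat shock families and 395 of 818 of the study's lower transcripts. The second and dim PAL1 probe had ratios of −0.59, −0.69 and −0.21.

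HY5 had ratios of −3.16, −2.03 and −0.76 in the same order, a difference of −1.76 ± 0.66 with limma's adjusted p = 0.827. The MYB12 genes read −2.54, −1.60 and −0.80 for MD03G1297100 and −2.46, −1.62 and −0.81 for MD11G1316800. GI, with −1.20, −0.49 and −0.28, and HSP70 MD07G1197200, with −3.66, −1.91 and −1.18, were also furthest from 0 in 2017-R11.

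**Figure D4:**
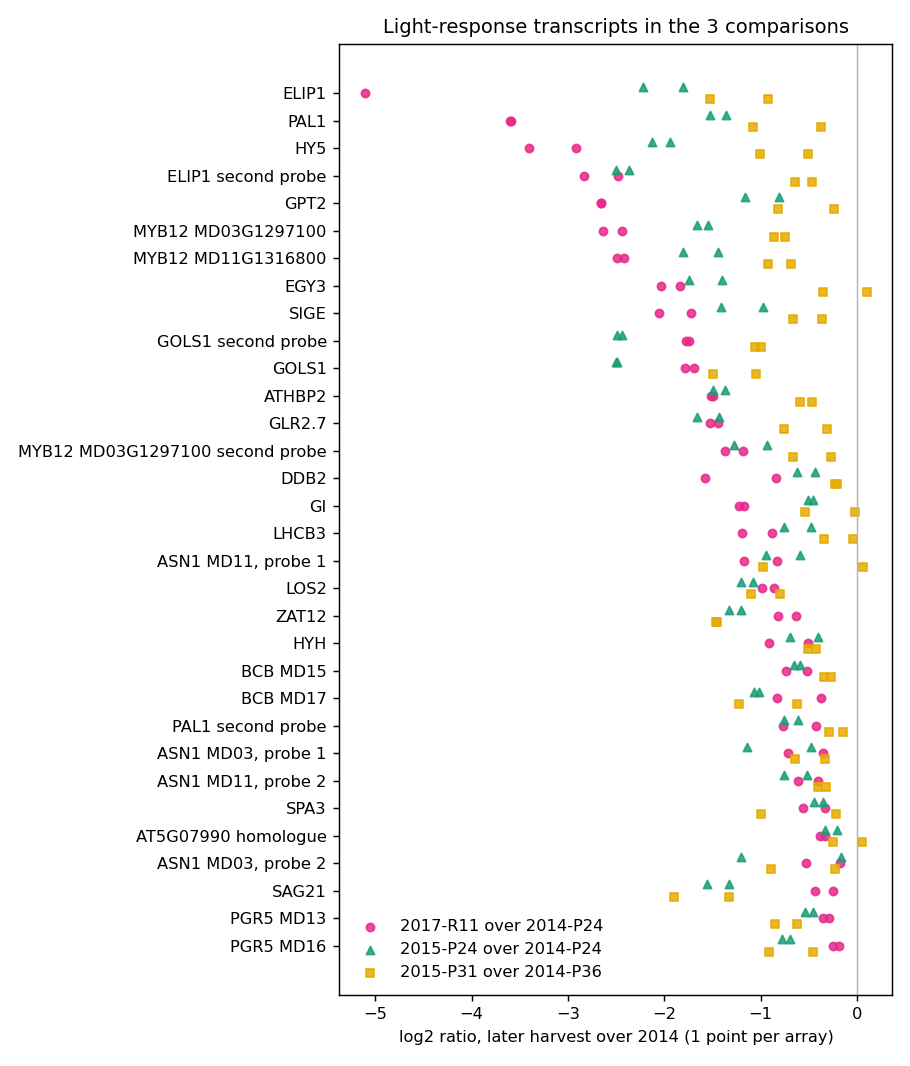
Log2 ratio of the later harvest over 2014 for the same 32 light-response probes, 1 point per array, in 2017-R11 (circles), 2015-P24 (triangles) and 2015-P31 (squares). Circles lie furthest left for PAL1, HY5 and GPT2, and right of the triangles for GOLS1, ZAT12 and SAG21. 2017-R11 and 2015-P24 share the 2014-P24 peel.

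Other members ran the opposite way, with a ratio nearer to 0 in 2017-R11 than in 2015 peel. SAG21 had ratios of −0.34 for 2017-R11, −1.45 for 2015-P24 and −1.61 for 2015-P31, a difference of 1.19 ± 0.11 with limma's adjusted p = 0.529. AATP1 had ratios of −0.21, −1.40 and −1.80, a difference of 1.39 ± 0.21 with limma's adjusted p = 0.535. ZAT12 had ratios of −0.72, −1.26 and −1.46. LOX had ratios of 0.26, 1.70 and 0.37. GOLS1, at −1.74, −2.50 and −1.27, and IMS1, at 1.92, 2.96 and 1.72, lay between their 2015 values. In the list of multiple stimuli, to which SAG21, ZAT12 and GOLS1 belong, the medians over the 7 genes measured on both arrays were −0.80, −1.26 and −0.95. Within this list EGY3, at −1.94, −1.57 and −0.12, and ELIP1, at −5.11 on 1 array, −2.01 and −1.22, were furthest from 0 in 2017-R11. The other ELIP1 probe, measured on both arrays but not well above background in 2017-R11, had ratios of −2.66, −2.43 and −0.56.

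The next probes were picked as the unnamed ones with the largest difference from the 2015 mean in each direction. Named probes come mostly from transcripts the study listed as lower, so that named and unnamed probes cannot be compared in sign. MDP0000126567 read 11.76 and 11.87 in 2014-P24 and 8.99 and 8.79 in 2017-R11, a ratio of −2.92 that stood beside 0.25 in 2015-P24 and 1.32 in 2015-P31. MDP0000394944 read 9.59 and 9.54 in 2014-P24 and 11.40 and 11.53 in 2017-R11, a ratio of 1.91 beside −0.46 and −1.65. Their differences from the 2015 mean had adjusted p values of 0.532 and 0.585 in limma's test.

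**Figure D5:**
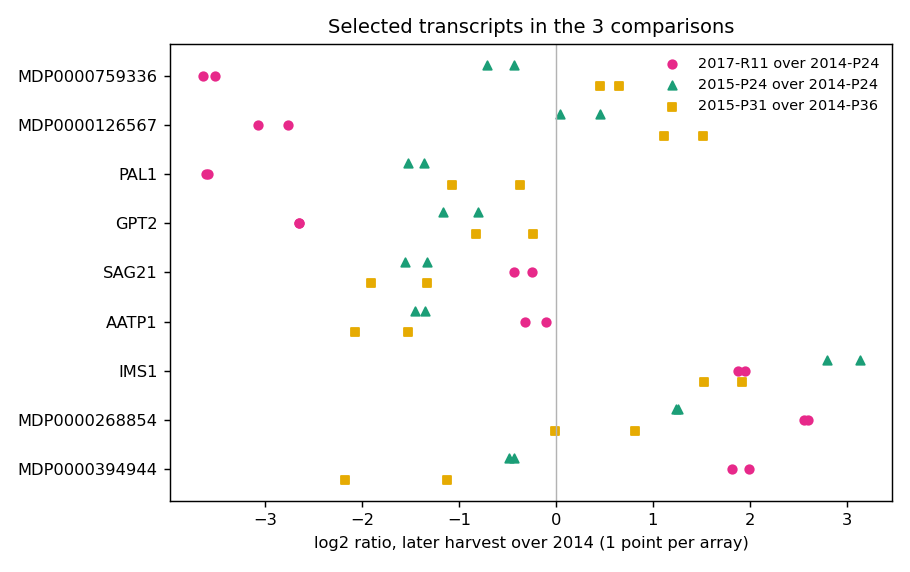
Log2 ratio of the later harvest over 2014 for 9 transcripts, 1 point per array, in 2017-R11 (circles), 2015-P24 (triangles) and 2015-P31 (squares). MDP0000126567 and MDP0000394944 change sides of 0 between 2017-R11 and the 4 arrays of 2015 peel, and SAG21 and AATP1 lie nearest to 0 in 2017-R11.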

How the data were processed

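Total RNA of peel was labelled with Cy3 or Cy5 and hybridised to 2-colour Agilent arrays, 6 arrays in all. The scanner files hold the linear intensity of each spot and of its local background, and the processed intensity that the authors deposited was close to the median spot signal with no background subtracted (the plan named the mean signal, which was not used). The deposited value table holds log2 intensities with the scale and centring unstated, and it served as an alternative. The submitters' processing notes name limma with no version.

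Intensities were background-corrected by normexp (offset 50), normalised within arrays by loess (span 0.3, 4 iterations, control and outlier spots at weight 0), and spots of a probe were averaged, in limma 3.58.1 under R 4.3.3. Levels were single channels after loess and quantile scaling of the average intensity. A channel was well above background where spot minus local background exceeded 2.6 SD of the background pixels, which held for 21.6 to 22.0% of the probes in the 4 channels. The number of arrays limits the precision. A probe counted as lower or higher where both arrays had the same sign and the mean log2 ratio was at least 1 in size. The one test was limma's moderated test with Benjamini-Hochberg adjustment, over dye-swap averages. The 2014-P24 levels measured with 2017-R11 and with 2015-P24 differed with an SD of 0.122 over 26998 probes.

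Gene names came from the study's tables, of which the list of lower transcripts was at hand only in part. Named were the light-response members, up to 4 members per heat shock family and stress group, the RT-qPCR genes, and the probes with the largest ratio, the largest difference from 2015 peel or the largest disagreement between arrays; of unnamed transcripts 2 per direction were printed, and members of the metabolic lists were named after their values were seen. The members and lists were chosen with earlier results of these data known. Alternatives changed the background correction, offset, normalisation, outliers, filter, threshold, source table and arrays. The scripts were tested on simulated data. Figures were drawn with matplotlib 3.10.9.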

Additional observations from a re-analysis of the deposited data

Results flagged for a closer look

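In 2014-P24 the 4 channels of the peel, a and b measured with 2015-P24 and c and d measured with 2017-R11, were searched for a channel far from the others among 88 named probes. The gap to the nearest channel over the whole range was above Dixon's critical value for 3 probes, and chance gives such a gap in about 1 of 20 groups. HSP101 MD06G1201600 read 13.34 in channel a beside 13.59 to 13.63 in the others. HSP101 MD06G1201200 read 9.93 in channel c beside 10.76 to 10.90, and channel c belongs to the comparison with 2017-R11, whose 2 ratios for this gene were −2.04 and −2.94. ASN1 MD11G1070800 read 14.21 in channel b beside 14.06 to 14.07.

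Among the probes printed, 2 unnamed ones were such that both arrays of 2017-R11 ran opposite to all 4 arrays of 2015 peel. MDP0000126567 differed from the 2015 mean by −3.70, with 2015 ratios from 0.04 to 1.52. MDP0000394944 differed by 2.96, with 2015 ratios from −2.17 to −0.43. Over all probes past 2-fold, 28 lower and 49 higher ran opposite to all 4 arrays of 2015 peel, 2 of which share the 2014-P24 peel. These counts stand beside 513 lower and 480 higher probes with a ratio in every comparison. The share over all probes examined was not computed, so that the counts are a description. Neither of the differences given passed limma's test, with adjusted p values of 0.532 and 0.585.

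In 3 bright probes, all with saturated spots in both samples, the 2 dye-swapped arrays disagreed most. Their pairs of ratios were −0.86 with 1.43, −0.84 with 1.49 and −0.88 with 1.75.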

How the results depend on the processing

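No paired analysis was possible because the ratio is already taken within an array, the replicate letters of 2014-P24 do not recur in 2017-R11, and the counts come from no test. The counts of higher and lower probes, 480 and 514, became 1093 and 1293 with plain background subtraction, 874 and 1102 with an offset of 1, 186 and 856 without loess, 1991 and 1692 at 1.5-fold, and 4709 and 4707 by limma over the 2 dye-swapped arrays, which covers technical error only. Of the lower probes 514 recurred without loess, and of the higher ones 185. Without loess but centred on the probes examined, a setting chosen after seeing the data, the counts were 409 and 540, with 371 and 491 shared. The other settings stayed within 1.5 times, and leaving out either array gave 542 to 603 higher and 557 to 572 lower. The light-response median of −1.56 became −2.07 with plain subtraction, −1.98 with an offset of 1, −1.80 without loess, −1.71 in the deposited table, −1.68 without background correction, −1.65 without dim members, −1.62 with outlier spots, and −1.60 to −1.58 with 1 array. The heat shock median of −2.80 became −3.31, −3.29, −3.11 and −3.01 in the first 4 of these settings, and −2.90 to −2.74 with 1 array. No named ratio past 2-fold changed sign in any alternative. Under 2-fold, EXGT went from 0.29 to −0.07 without loess and MD06G1160300 from −0.23 to 0.01 with the first array alone, and 179 values under the alternatives moved by more than the spread between arrays while 546 did not. No probe passed the test against 2015 peel in any fit over 3 ratios. With the 6 arrays entered singly, which counts dye-swapped arrays as independent, 400 passed. A fit of the 6 arrays with a further term for 2015-P31, a setting chosen after seeing the data, called 568. That fit set 2017-R11 against 2015-P24 alone, so that 568 does not count differences from the 2015 mean. The cause of these shifts was not tested. With dim signal, 103 lower probes had no 2017-R11 channel and 12 higher probes no 2014-P24 channel well above background.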
